A study of Homo sapiens with 12 samples.

Results

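Transcript levels of the genes for cholesterol and fatty acid synthesis, and of their regulators, were followed in the human myeloid cell line U937, which resembles immature monocytes. The list holds 30 genes, and each was represented by the probe set (a group of short probes combined into 1 level) that was annotated to its symbol alone and had the highest mean over all arrays. Of the 30 genes, 27 had such a probe set, of 19775 genes on the arrays as a whole, and 26 reached a log2 level of 5 on at least 3 arrays and were tested, among 14080 genes. FDFT1, which makes squalene, was on none of the annotated probe sets, CYP51A1, the lanosterol demethylase, was on 2 probe sets that carry several symbols, and FADS1, a fatty acid desaturase, was on 3 such probe sets. ELOVL6, a fatty acid elongase, lay between 3.17 and 3.73 on the 12 arrays and was not tested.

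The cells had been transduced with a vector expressing EVI1, a zinc finger transcription factor and myeloid oncogene encoded by MECOM, or with the empty vector. Both kinds of cell were exposed to all-trans retinoic acid (ATRA, a ligand of retinoic acid receptors) at 1 µM, or to the solvent DMSO, over 24 h. The 4 groups are called vector DMSO and vector ATRA for the empty vector, and EVI1 DMSO and EVI1 ATRA for the EVI1 vector. Each has 3 replicates, numbered 1 to 3 in the labels and described as biological. All groups share the line and the medium. The vector and EVI1 cells received different vectors, so EVI1 and any other difference between the transduced cells cannot be told apart, and whether each transduced line was 1 clone or a pool is not given in the sources used here. The series asks whether EVI1 alters the response of myeloid cells to ATRA.

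Cholesterol and fatty acid synthesis are controlled by the sterol regulatory element binding proteins, encoded by SREBF1 and SREBF2. When membrane sterol is low, the escort protein SCAP carries their precursors from the endoplasmic reticulum to the Golgi, where proteolysis frees the active factor, which enters the nucleus and raises transcription of the synthesis genes. When sterol is plentiful, INSIG1 and INSIG2 hold SCAP back. INSIG1 is itself a transcriptional target of these factors.

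The bases upstream of 6 members are shown because these genes either carry the regulatory signal (SREBF1, SREBF2, INSIG1 and STARD4, a sterol transport protein) or encode enzymes of the pathway with large differences in the results that follow (HMGCS1 and MSMO1). Each window holds the 250 bases before the transcription start in RefSeq (GRCh38.p14), read 5′ to 3′ on the strand of the gene. HMGCS1 has another window in the table, which is not shown. Capitals mark 4 sets of letters searched on both strands: the sterol regulatory element TCACNCCAC, the NF-Y box CCAAT, the GC box GGGCGG and the E-box CACGTG. Neighbouring matches can overlap, as the GC boxes of INSIG1 do.

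SREBF2, chr22:41832855-41833104, plus strand: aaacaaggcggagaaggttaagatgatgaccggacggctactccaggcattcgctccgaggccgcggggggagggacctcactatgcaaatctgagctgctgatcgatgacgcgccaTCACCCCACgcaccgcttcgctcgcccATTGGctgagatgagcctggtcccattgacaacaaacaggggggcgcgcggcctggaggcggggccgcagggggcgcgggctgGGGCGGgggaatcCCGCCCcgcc
INSIG1, chr7:155297628-155297877, plus strand: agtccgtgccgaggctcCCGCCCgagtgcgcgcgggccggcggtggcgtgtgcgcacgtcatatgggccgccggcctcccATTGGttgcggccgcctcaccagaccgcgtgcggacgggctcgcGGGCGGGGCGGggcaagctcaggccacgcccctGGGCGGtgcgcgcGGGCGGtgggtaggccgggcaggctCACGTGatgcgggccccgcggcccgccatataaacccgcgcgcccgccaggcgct
STARD4, chr5:111512536-111512785, minus strand: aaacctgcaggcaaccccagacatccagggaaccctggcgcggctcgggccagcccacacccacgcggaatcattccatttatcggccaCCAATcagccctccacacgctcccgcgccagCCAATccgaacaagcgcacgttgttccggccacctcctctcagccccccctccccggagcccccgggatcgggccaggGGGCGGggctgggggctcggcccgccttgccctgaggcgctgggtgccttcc
HMGCS1, chr5:43313413-43313662, minus strand: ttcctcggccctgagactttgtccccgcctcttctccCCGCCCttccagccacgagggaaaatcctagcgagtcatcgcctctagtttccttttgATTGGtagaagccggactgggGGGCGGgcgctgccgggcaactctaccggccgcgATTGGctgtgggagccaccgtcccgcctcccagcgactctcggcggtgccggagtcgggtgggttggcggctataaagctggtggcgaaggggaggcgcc
MSMO1, chr4:165327419-165327668, plus strand: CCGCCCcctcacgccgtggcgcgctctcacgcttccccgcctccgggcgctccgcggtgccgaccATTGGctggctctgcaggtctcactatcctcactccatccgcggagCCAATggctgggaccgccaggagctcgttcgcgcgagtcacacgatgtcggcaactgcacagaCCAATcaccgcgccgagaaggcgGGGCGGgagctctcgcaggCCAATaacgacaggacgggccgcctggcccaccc
SREBF1, chr17:17836987-17837236, minus strand: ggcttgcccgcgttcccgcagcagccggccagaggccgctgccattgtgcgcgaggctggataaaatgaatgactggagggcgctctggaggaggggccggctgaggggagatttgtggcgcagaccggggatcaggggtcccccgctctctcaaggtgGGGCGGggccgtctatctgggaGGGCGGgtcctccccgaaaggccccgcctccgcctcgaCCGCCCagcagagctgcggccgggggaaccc

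RefSeq held upstream windows for 26 of the 30 genes, 35 windows in all, and ACAT2, FDFT1, SQLE and FASN were not among them. The NF-Y box was found in 21 of the 35 windows (60%), against 32.4% of the 16124 windows of tested genes and 32.0% of all 35116 windows. The GC box was found in 31 windows (88.6%), against 60.1% and 42.6%. Some members have several windows, which can overlap. By gene, the NF-Y box was found for 18 of 26 members (69.2%), against 40.4% of tested genes. The GC box was found for 25 of 26 members (96.2%), against 70.3% of tested genes. For both boxes these shares, given as descriptions, were higher than those of the tested genes, by window and by gene. The sterol regulatory element as spelled was found in 1 window (2.86%), that of SREBF2, against 0.868% of windows of tested genes and 0.883% of all windows. The E-box was found in 4 windows (11.4%), those of INSIG1, SC5D and SCAP, against 8.03% and 6.34%. SC5D has overlapping windows that hold the same E-box, which was counted in each. By gene, the E-box was found for 3 of 26 members (11.5%), near the 10.8% of tested genes. A match describes the letters, not binding of a factor, and a window without one says only that these letters are not in it.

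Within a group, pairs of arrays had correlations of 0.987 to 0.995 across the probe sets, and their medians lay between 5.29 and 5.35. The 5 probe sets for MECOM read 2.61 to 3.60 on all 12 arrays, below the lower quartile of the arrays (3.83 to 3.91), and none passed the test between EVI1 and vector cells, the largest difference being 0.40 ± 0.15 (SE, adjusted p = 0.248, and 0.0836 with the replicate number as a block). These probe sets therefore do not check the EVI1 label, and the groups are named as labelled. Of 10 monocytic and myeloid markers, 8 were measured and all 8 passed the signal limit, at 4.80 to 13.65, with LYZ, the lysozyme gene, at 12.35 to 13.65 and MPO, myeloperoxidase, at 4.80 to 5.97. The ranges of the other lists were 3.87 to 6.88 for B cells, 4.61 to 6.39 for T and NK cells, 4.91 to 6.50 for erythroid cells, 4.67 to 7.21 for megakaryocytes, 2.78 to 6.08 for epithelial cells and 4.06 to 7.98 for fibroblasts. Levels of different probe sets are not on 1 scale, so these lists are not set against each other.

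Group differences were tested with limma over all 14080 genes, with p-values adjusted by the method of Benjamini and Hochberg and a call at an adjusted p under 0.05. Samples that share a replicate number deviated together over all genes, so each test was repeated with that number as a block, and both values are given where they put a gene on different sides of the threshold. Differences are on the log2 scale and are followed by their standard error from the fit (SE).

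No gene of the 26 passed the test without the block in any comparison between groups. For ATRA against DMSO, the share of all genes called was 3.52% in vector cells and 15.1% in EVI1 cells. For EVI1 against vector it was 1.21% under DMSO and 5.61% under ATRA. For the interaction, the ATRA effect in EVI1 cells minus that in vector cells, 0% of genes were called with either fit. Among the 26 genes, an unadjusted p under 0.05 was reached by 1 gene for ATRA in vector cells (SREBF1), 2 for ATRA in EVI1 cells (SREBF1 and STARD4), 0 for EVI1 under DMSO, 2 for EVI1 under ATRA (PMVK and TM7SF2) and 0 for the interaction. Over all 14080 genes, in the same order, it was reached by 2454, 4056, 1379, 2954 and 362. With the block, the interaction gave such a p for 2 of the 26 genes and for 1846 of all genes.

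With the block, 3 of the 26 genes passed for ATRA in vector cells (11.5%, against 20% of all genes), 4 for ATRA in EVI1 cells (15.4% against 35.7%), 1 for EVI1 under DMSO (3.85% against 7.19%) and 7 for EVI1 under ATRA (26.9% against 25.3%). The first 3 shares were below that of all genes, and the last was close to it. The members' median log2 difference was 0.05 for ATRA in vector cells, -0.025 for ATRA in EVI1 cells, -0.11 for EVI1 under DMSO and -0.17 for EVI1 under ATRA. Over all genes the medians lay between -0.023 and 0.017. These comparisons share arrays: both ATRA effects use the DMSO groups that the EVI1 effect under DMSO compares, so their values are not independent of each other.

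**Figure D1:**
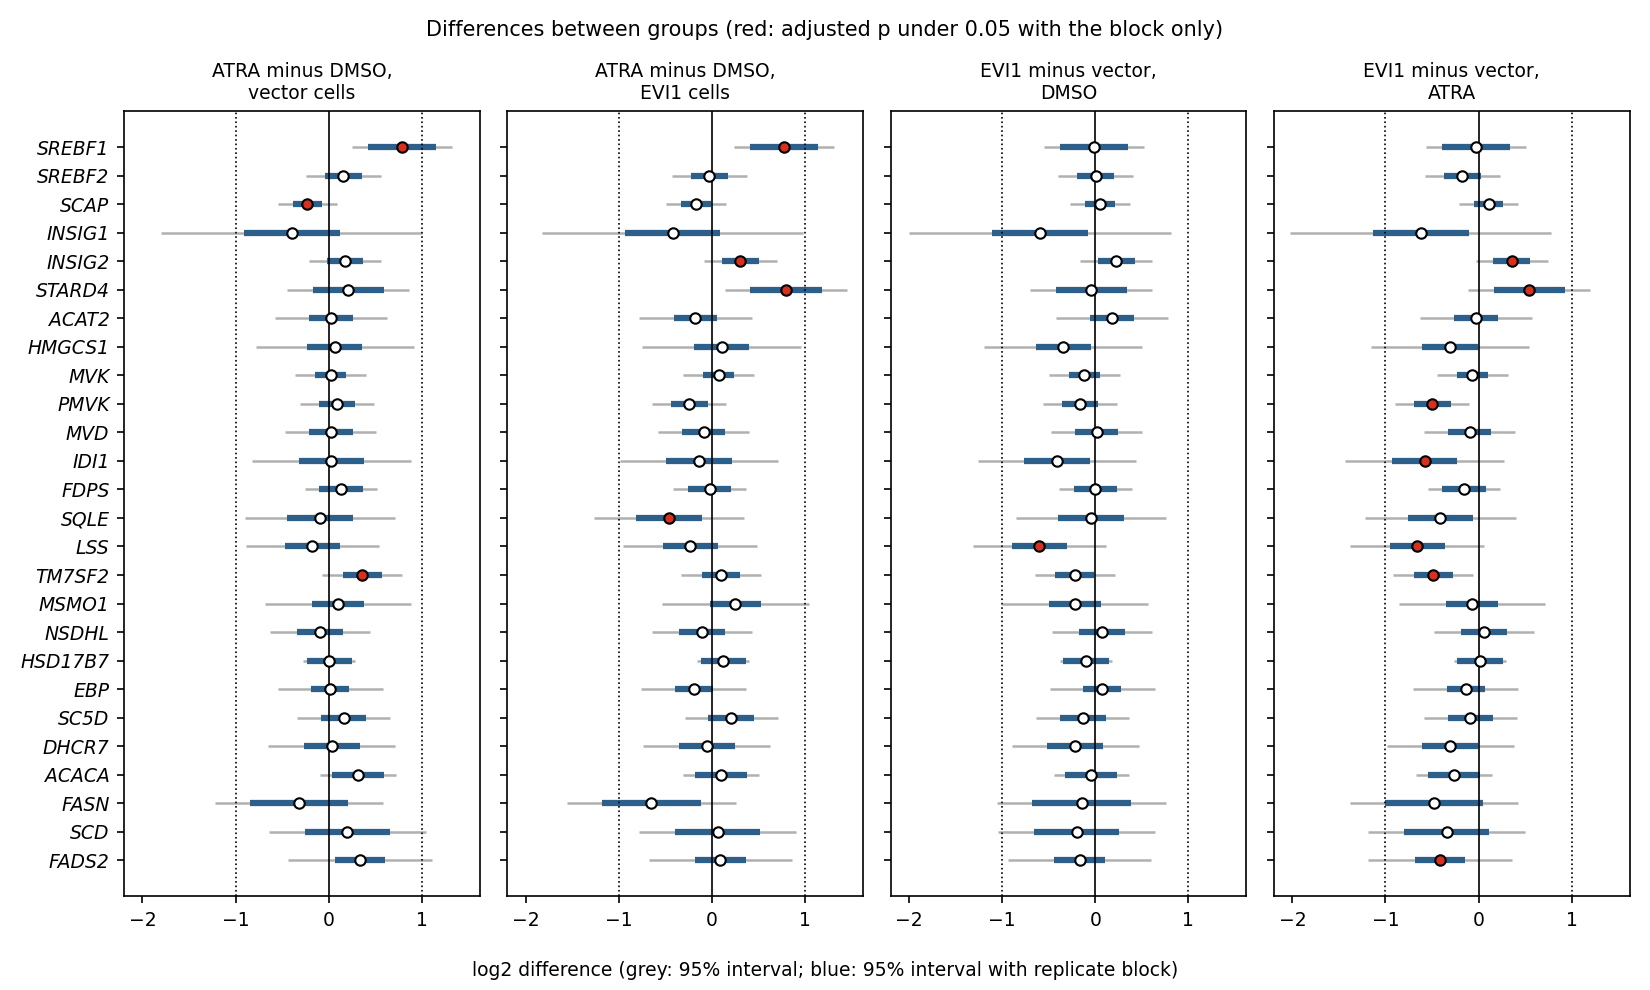
Log2 difference (x axis) of each of the 26 tested genes (y axis) in 4 comparisons between groups, with points for the difference, grey lines for the 95% interval and blue lines for the 95% interval with the replicate number as a block (n = 3 arrays a group). Dotted lines mark a 2-fold difference, red points passed the test with the block only, and the blue intervals are narrower than the grey ones for most genes.

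The intervals limit how large a missed difference could be. Without the block, the 95% interval lay within a 2-fold difference in either direction for 21 of the 26 genes for ATRA in vector cells, 20 for ATRA in EVI1 cells, 19 for EVI1 under DMSO and 17 for EVI1 under ATRA. With the block these counts were 25, 23, 25 and 24. For the interaction they were 13 and 24. Without the block, the members' shares were 80.8%, 76.9%, 73.1%, 65.4% and, for the interaction, 50%. Over all genes they were 93.3%, 88.3%, 95.9%, 91.8% and 89.3%, so the members were less closely bounded in that fit. With the block, the counts over all 14080 genes were 13541, 13057, 13774, 13442 and 13585.

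Among the regulators, SREBF1, which encodes the factor best known for driving fatty acid synthesis, had the clearest difference with ATRA. Its log2 levels in replicates 1, 2 and 3 were 8.66, 8.51 and 8.28 in vector DMSO cells and 9.23, 9.44 and 9.14 in vector ATRA cells. In EVI1 cells they were 8.39, 8.81 and 8.21 with DMSO and 8.97, 9.91 and 8.85 with ATRA. All ATRA arrays lay above all DMSO arrays of the same cells, and the EVI1 and vector arrays overlapped. SREBF1 was the only member of 26 (3.85%) whose arrays did not overlap in each ATRA comparison, against 23.4% of all genes in vector cells and 27.5% in EVI1 cells. In the EVI1 comparisons this held for 0 members, against 14.6% of all genes under DMSO and 21% under ATRA. The ATRA difference was 0.79 ± 0.25 in vector cells (1.73-fold, adjusted p = 0.115, and 0.00907 with the block) and 0.77 ± 0.25 in EVI1 cells (1.71-fold, adjusted p = 0.0556, and 0.00450 with the block). It was higher with ATRA in 3 of 3 replicate numbers in both kinds of cell. Without EVI1 ATRA replicate 2 the difference in EVI1 cells was 0.44. A second probe set for SREBF1 read smaller differences, 0.28 and 0.26. SREBF1 also passed without the block when 1 array was left out: in vector cells without EVI1 ATRA replicate 2 (adjusted p = 0.0334), and in EVI1 cells without EVI1 ATRA replicate 1 or 3 (adjusted p = 0.0334 and 0.0493).

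SREBF2, which encodes the factor best known for driving cholesterol synthesis, passed the test in none of the 5 comparisons, with or without the block. Its levels lay between 7.56 and 8.36 on the 12 arrays, and in vector cells its mean was 7.96 ± 0.14 (SD, n = 3) with DMSO and 8.12 ± 0.22 with ATRA. In EVI1 cells the means were 7.97 ± 0.25 and 7.94 ± 0.35. The groups overlapped throughout. SCAP, the escort protein, had levels of 9.83, 9.66 and 9.61 in vector DMSO cells and 9.73, 9.28 and 9.40 in vector ATRA cells, which overlap. Its ATRA difference in vector cells was -0.23 ± 0.15 (adjusted p = 0.474, and 0.0450 with the block), lower in 3 of 3 replicate numbers. It was -0.36 without vector ATRA replicate 1 and -0.14 without vector ATRA replicate 2.

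INSIG1, which retains SCAP, had the widest spread of all members, from 8.91 in EVI1 ATRA replicate 3 to 11.81 in vector DMSO replicate 2. In replicates 1, 2 and 3 it read 11.49, 11.81 and 10.75 in vector DMSO cells and 11.05, 11.67 and 10.14 in vector ATRA cells. In EVI1 cells it read 10.65, 11.77 and 9.85 with DMSO and 10.50, 11.59 and 8.91 with ATRA. Replicate 3 was the lowest and replicate 2 the highest in each group, and the groups overlapped. Its differences were -0.40 and -0.42 for ATRA in vector and EVI1 cells and -0.59 and -0.62 for EVI1 under DMSO and ATRA. The SE of each was 0.64 without the block and 0.23 with it, and INSIG1 passed the test in none of them with either fit. Over its 3 probe sets the sign was the same in each of these comparisons.

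INSIG2, the second SCAP retention protein, went the other way with replicate number. In replicates 1, 2 and 3 it read 8.59, 8.48 and 8.98 in vector DMSO cells and 8.79, 8.71 and 9.08 in vector ATRA cells. The corresponding values were 8.65, 8.96 and 9.12 in EVI1 DMSO cells and 9.01, 9.14 and 9.50 in EVI1 ATRA cells. Replicate 3 was the highest in every group, and the groups compared overlapped. Its differences were 0.31 ± 0.18 for ATRA in EVI1 cells (adjusted p = 0.294, and 0.0207 with the block) and 0.36 ± 0.18 for EVI1 under ATRA (adjusted p = 0.285, and 0.0158 with the block), each higher in 3 of 3 replicate numbers. Without EVI1 ATRA replicate 3 they were 0.17 and 0.22 (limma without the block, not called), and without EVI1 DMSO replicate 1 the first was 0.18.

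STARD4, which moves sterol between membranes, read 8.88, 8.78 and 8.45 in vector DMSO cells, 8.81, 9.25 and 8.68 in vector ATRA cells, 8.44, 9.18 and 8.36 in EVI1 DMSO cells and 9.09, 10.19 and 9.09 in EVI1 ATRA cells. The highest array was EVI1 ATRA replicate 2, and the EVI1 ATRA group overlapped EVI1 DMSO through replicate 2 of the latter. Its ATRA difference in EVI1 cells was 0.80 ± 0.30 (1.74-fold, adjusted p = 0.0975, and 0.00477 with the block), and its EVI1 difference under ATRA was 0.54 ± 0.30 (adjusted p = 0.338, and 0.0423 with the block). Without EVI1 ATRA replicate 2 these differences were 0.43 and 0.18. The EVI1 difference was 0.35 without all arrays of number 2 and 1.01 with array weights. In vector cells the ATRA difference was 0.21 ± 0.30, and the interaction, 0.59 ± 0.42, did not pass the test (adjusted p = 0.998, and 0.359 with the block).

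**Figure D2:**
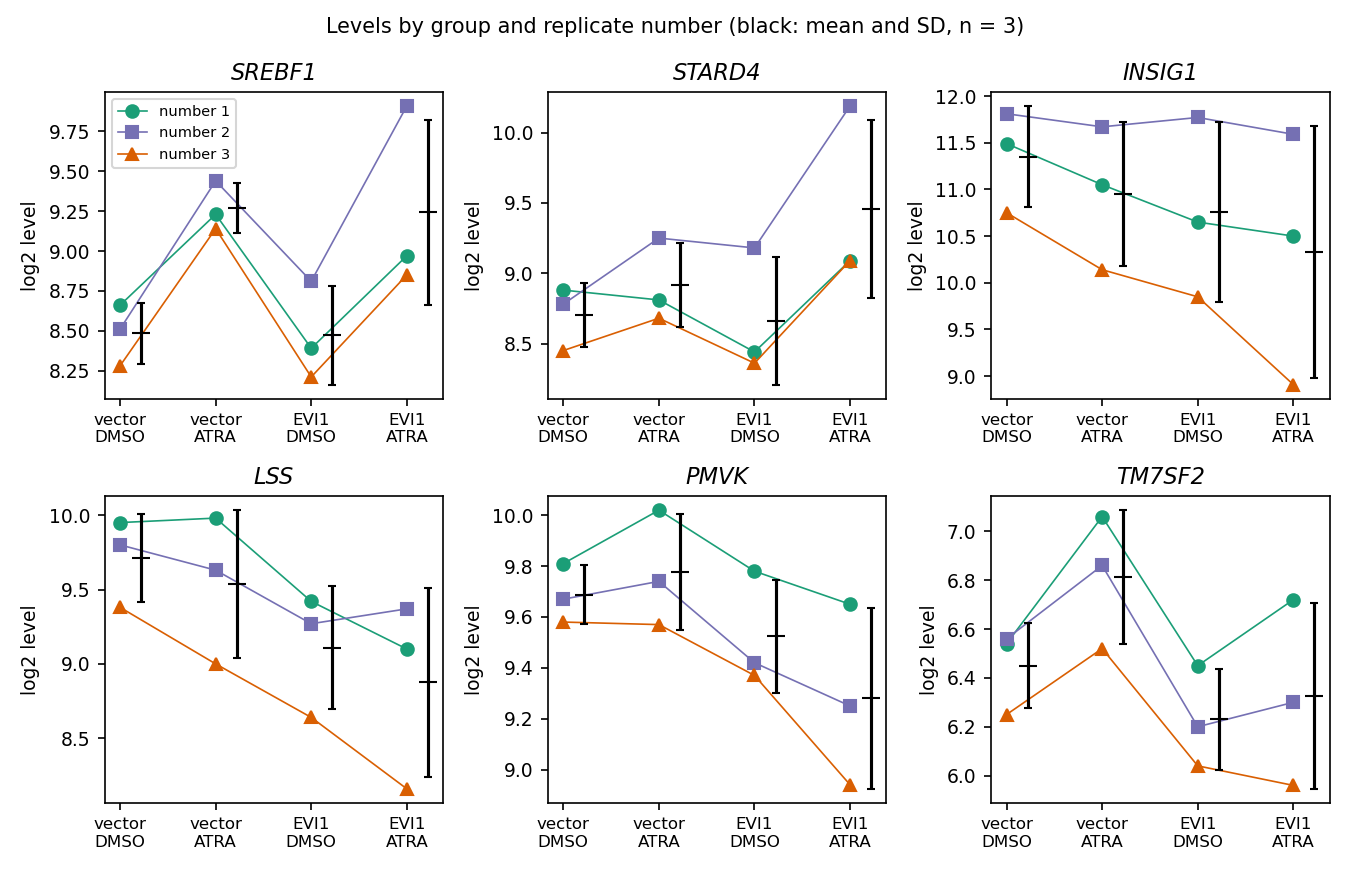
Log2 level (y axis) of 6 genes in the 4 groups (x axis), with coloured symbols joined by lines for the arrays of each replicate number and black bars for the mean and SD (n = 3). The arrays of number 3 are the lowest in every group for all 6 genes except STARD4 in EVI1 ATRA cells, where numbers 1 and 3 both read 9.09.

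In the mevalonate arm, which builds isoprenoid units from acetyl-CoA, 2 of the 7 tested genes passed the test with the block, both for EVI1 under ATRA (28.6%, against 25.3% of all genes, which is a share near the background). PMVK, phosphomevalonate kinase, read 10.02, 9.74 and 9.57 in vector ATRA cells and 9.65, 9.25 and 8.94 in EVI1 ATRA cells, which overlap. Its levels under DMSO were 9.81, 9.67 and 9.58 in vector cells and 9.78, 9.42 and 9.37 in EVI1 cells. The difference under ATRA was -0.50 ± 0.18 (adjusted p = 0.137, and 0.00360 with the block), lower in 3 of 3 replicate numbers. It was -0.33 without EVI1 ATRA replicate 3. Without EVI1 ATRA replicate 1 the adjusted p of PMVK was 0.0242, and without all arrays of number 1 it was 0.0409.

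IDI1, the isopentenyl diphosphate isomerase, read 10.69, 10.59 and 9.68 in vector ATRA cells and 10.19, 10.26 and 8.77 in EVI1 ATRA cells. Under DMSO it read 10.52, 10.40 and 9.95 in vector cells and 10.15, 10.12 and 9.37 in EVI1 cells. In each group replicate 3 was the lowest, by more than the gap between the other two. The EVI1 difference under ATRA was -0.58 ± 0.39 (adjusted p = 0.452, and 0.0231 with the block). In each replicate number the EVI1 ATRA array was lower than the vector ATRA array. In fits without the block, the difference was -0.095 without EVI1 ATRA replicate 3, -0.90 without vector ATRA replicate 3 and -0.14 with array weights. The probe set of IDI1 is of a class whose probes can match related sequences, so part of its signal may be shared. The other tested genes of the arm, ACAT2, HMGCS1, MVK, MVD and FDPS, had differences between -0.34 and 0.18 in the 4 comparisons of groups and passed none.

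In the sterol arm, which turns squalene into cholesterol, 3 of 9 tested genes passed the test with the block in at least 1 comparison. By comparison, 1 passed for ATRA in vector cells, 1 for ATRA in EVI1 cells, 1 for EVI1 under DMSO and 2 for EVI1 under ATRA (11.1%, 11.1%, 11.1% and 22.2%, against 20%, 35.7%, 7.19% and 25.3% of all genes). LSS, lanosterol synthase, read 9.95, 9.80 and 9.38 in vector DMSO cells, 9.98, 9.63 and 9.0 in vector ATRA cells, 9.42, 9.27 and 8.64 in EVI1 DMSO cells and 9.10, 9.37 and 8.16 in EVI1 ATRA cells. EVI1 arrays were lower than the vector arrays of the same number and agent in all 6 pairs, while the groups overlapped. The EVI1 difference was -0.60 ± 0.33 under DMSO (adjusted p = 0.634, and 0.0227 with the block) and -0.66 ± 0.33 under ATRA (adjusted p = 0.284, and 0.00629 with the block). Under DMSO it was -0.37 without EVI1 DMSO replicate 3. Under ATRA it was -0.30 without EVI1 ATRA replicate 3, -0.44 without vector ATRA replicate 1, -0.42 with the mean of all probe sets and -0.21 with array weights. The 2 other LSS probe sets, which lie near the signal limit, were also lower in EVI1 cells, by -0.26 and -0.38 under DMSO and by -0.32 and -0.27 under ATRA.

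TM7SF2, a sterol reductase, read 6.54, 6.56 and 6.25 in vector DMSO cells, 7.06, 6.86 and 6.52 in vector ATRA cells, 6.45, 6.20 and 6.04 in EVI1 DMSO cells and 6.72, 6.30 and 5.96 in EVI1 ATRA cells. The 2 highest values were those of vector ATRA cells, whose lowest array overlapped the vector DMSO and EVI1 ATRA groups. Its ATRA difference in vector cells was 0.36 ± 0.20 (adjusted p = 0.383, and 0.0226 with the block), and its EVI1 difference under ATRA was -0.49 ± 0.20 (adjusted p = 0.179, and 0.00529 with the block). In each replicate number the vector ATRA array was above both the vector DMSO and the EVI1 ATRA array. In fits without the block, the ATRA difference was 0.24 when vector ATRA replicate 1 was left out. The EVI1 difference was -0.30 without EVI1 ATRA replicate 3, and was called without EVI1 ATRA replicate 1 (adjusted p = 0.0335).

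SQLE, squalene epoxidase, read 10.29, 10.26 and 9.62 in EVI1 DMSO cells and 9.97, 10.12 and 8.70 in EVI1 ATRA cells, which overlap. Its ATRA difference in EVI1 cells was -0.46 ± 0.37 (adjusted p = 0.479, and 0.0448 with the block), lower in 3 of 3 replicate numbers. It was -0.012 without EVI1 ATRA replicate 3, -0.72 without EVI1 ATRA replicate 2, -0.23 without all arrays of number 3 and -0.13 with array weights. In vector cells SQLE read 10.36, 10.19 and 9.75 with DMSO and 10.50, 10.13 and 9.39 with ATRA. The other tested sterol genes, MSMO1, NSDHL, HSD17B7, EBP, SC5D and DHCR7, had differences between -0.30 and 0.25 and passed none. HSD17B7 is read by a probe set of the same class as IDI1, and is uncertain because a near-identical pseudogene copy exists.

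In the fatty acid arm, FADS2, the delta-6 desaturase, read 8.66, 8.79 and 7.87 in vector ATRA cells and 8.23, 8.60 and 7.25 in EVI1 ATRA cells. Its levels under DMSO were 8.18, 8.35 and 7.78 in vector cells and 8.16, 8.27 and 7.38 in EVI1 cells. The difference under ATRA was -0.41 ± 0.35 (adjusted p = 0.574, and 0.0324 with the block). In each replicate number the EVI1 ATRA array was lower than the vector ATRA array. In fits without the block, the difference was -0.025 without EVI1 ATRA replicate 3 and -0.24 without vector ATRA replicate 2. It was -0.70 without vector ATRA replicate 3 or EVI1 ATRA replicate 2, and 0.028 with array weights, which turn its sign. Leaving out a single array unbalances the replicate numbers, so these values do not test the difference within numbers. FADS2 was the only one of the 4 tested genes of this arm to pass, with the block, in any comparison of groups (25% for EVI1 under ATRA, against 25.3% of all genes). ACACA, acetyl-CoA carboxylase, had differences between -0.26 and 0.32, and SCD, stearoyl-CoA desaturase, had differences between -0.34 and 0.20.

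FASN, fatty acid synthase, read 9.17, 8.51 and 8.26 in vector DMSO cells, 8.71, 8.46 and 7.82 in vector ATRA cells, 9.03, 8.46 and 8.01 in EVI1 DMSO cells and 8.0, 8.65 and 6.90 in EVI1 ATRA cells. The lowest array was EVI1 ATRA replicate 3, and groups overlapped. Its ATRA difference in EVI1 cells was -0.65 ± 0.41 (adjusted p = 0.347, and 0.0560 with the block). A second FASN probe set read -0.03 in that comparison, and its sign differed from the first in the other comparisons of groups. It read 0.06 against -0.32 for ATRA in vector cells. For EVI1 it read 0.27 against -0.15 under DMSO and 0.18 against -0.48 under ATRA.

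The members varied more with replicate number than with group. The median member had 70.0% of its variance over the 12 arrays between replicate numbers and 15.8% between groups, against 30.0% and 42.5% over all genes tested. The share between numbers was the larger for 21 of the 26 (80.8%), against 42.1% of all genes. SREBF1, INSIG2, STARD4, PMVK and TM7SF2 were the members with more variance between groups. The contrast that follows, number 3 against the mean of numbers 1 and 2 in the fit with group and number, was chosen after these values were seen. Its SE and p-values measure how alike the difference was over the 4 groups. Number 3 is 1 replicate number, so they do not measure the spread between replicate numbers. The same holds for the contrasts of number 1 and number 2.

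In replicate number 3, 21 of the 26 genes fell and 1 rose, while 23.3% of all 14080 genes were called, 12.5% lower and 10.9% higher. The members' median difference was -0.51, against -0.029 for all genes, and 24 of 26 were lower. In all 4 groups, replicate 3 held the lowest of the 3 arrays for 20 of the 26 genes (76.9%), against 7.6% of all genes. Replicates 1 and 2 did so for 0 members, against 9.79% and 8.95% of all genes. The median member was lower by -0.35 in vector DMSO cells, -0.63 in vector ATRA cells, -0.40 in EVI1 DMSO cells and -0.71 in EVI1 ATRA cells. The arrays of number 3 were thus low for these genes in each group, with and without EVI1 and ATRA.

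**Figure D3:**
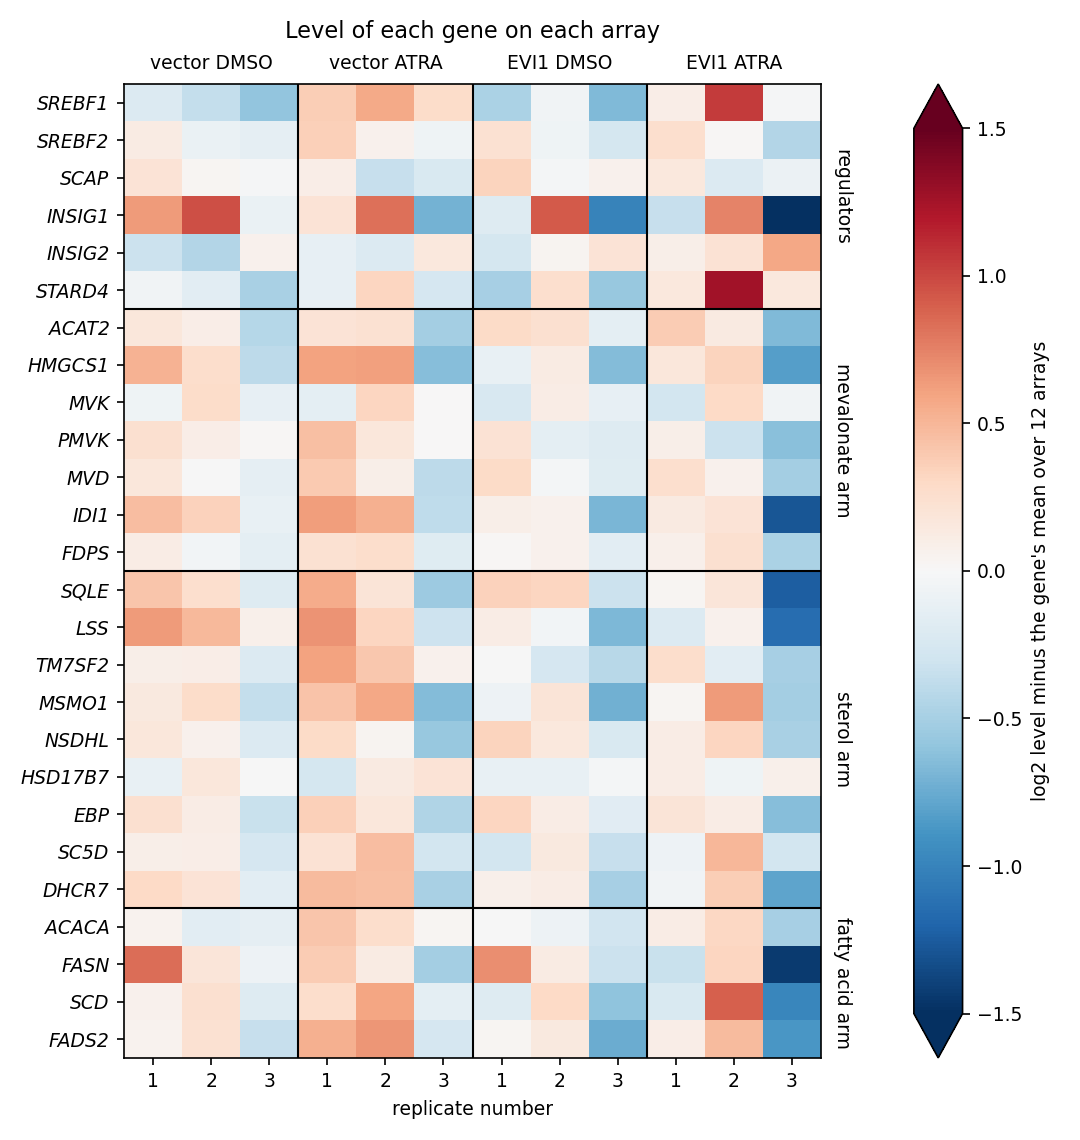
Log2 level of each of the 26 tested genes (rows, ordered by role) on each of the 12 arrays (columns, grouped by group and numbered by replicate), as the difference from the gene's mean over all arrays. Blue columns at replicate 3 in all 4 groups show the low levels there, and INSIG2 and HSD17B7 are the rows that were not lower.

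INSIG1 had the largest fall in number 3 of all 14080 genes, -1.40 ± 0.17 (2.65-fold, adjusted p = 0.00159). The mean it was set against includes number 2, where INSIG1 was high: number 2 differed from the other numbers by 1.29 ± 0.17 (limma adjusted p = 0.00260). Against number 1 alone, the difference of number 3 was -1.01. HMGCS1, which makes the first committed intermediate on the way to mevalonate, fell by 0.94 ± 0.10 (adjusted p = 0.00131) and ranked 6. Among the 20 largest falls, 9 were members: INSIG1, HMGCS1, IDI1 (rank 9), FASN (10), SQLE (11), FADS2 (12), MSMO1 (13), LSS (15) and SCD (19). These ranks rest on 1 probe set a gene and on the main fit. Across that fit and its alternatives, the difference ranged from -1.06 to -0.47 for IDI1 and from -0.98 to -0.54 for FASN. DHCR7, the last enzyme of one route to cholesterol, ranked 21 and ACAT2, which makes acetoacetyl-CoA, ranked 29.

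HMGCS1 read 8.97, 8.71 and 8.06 in vector DMSO cells, 9.06, 9.07 and 7.81 in vector ATRA cells, 8.34, 8.57 and 7.80 in EVI1 DMSO cells and 8.62, 8.78 and 7.62 in EVI1 ATRA cells. All 4 arrays of number 3 lay below all 8 others. MSMO1, the methylsterol monooxygenase, read 9.29, 9.42 and 8.79 in vector DMSO cells, 9.57, 9.73 and 8.5 in vector ATRA cells, 9.07, 9.34 and 8.43 in EVI1 DMSO cells and 9.18, 9.78 and 8.64 in EVI1 ATRA cells, again with number 3 below all others. SCD read 11.97, 12.15 and 11.71 in vector DMSO cells, 12.17, 12.50 and 11.76 in vector ATRA cells, 11.72, 12.21 and 11.30 in EVI1 DMSO cells and 11.68, 12.80 and 10.93 in EVI1 ATRA cells. For SCD, number 3 was the lowest in each group, but the ranges of numbers 1 and 3 overlapped across groups.

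By role, 3 of 6 regulators, 6 of 7 genes of the mevalonate arm, 8 of 9 of the sterol arm and 4 of 4 of the fatty acid arm fell in number 3. These shares were 50%, 85.7%, 88.9% and 100%, against 12.5% of all genes. The median difference was -0.35 for the regulators, -0.46 for the mevalonate arm, -0.60 for the sterol arm and -0.78 for the fatty acid arm. Both precursor genes were lower by similar amounts: SREBF2 fell by 0.33 ± 0.067 (adjusted p = 0.00809), and SREBF1 differed by -0.37 ± 0.12 (adjusted p = 0.0544) without passing the test. STARD4 fell by 0.43 ± 0.13 (adjusted p = 0.0370). INSIG2 was the gene that rose, by 0.38 ± 0.067 (adjusted p = 0.00499). SCAP, MVK and HSD17B7 did not pass, with differences of -0.098, -0.11 and 0.088.

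**Figure D4:**
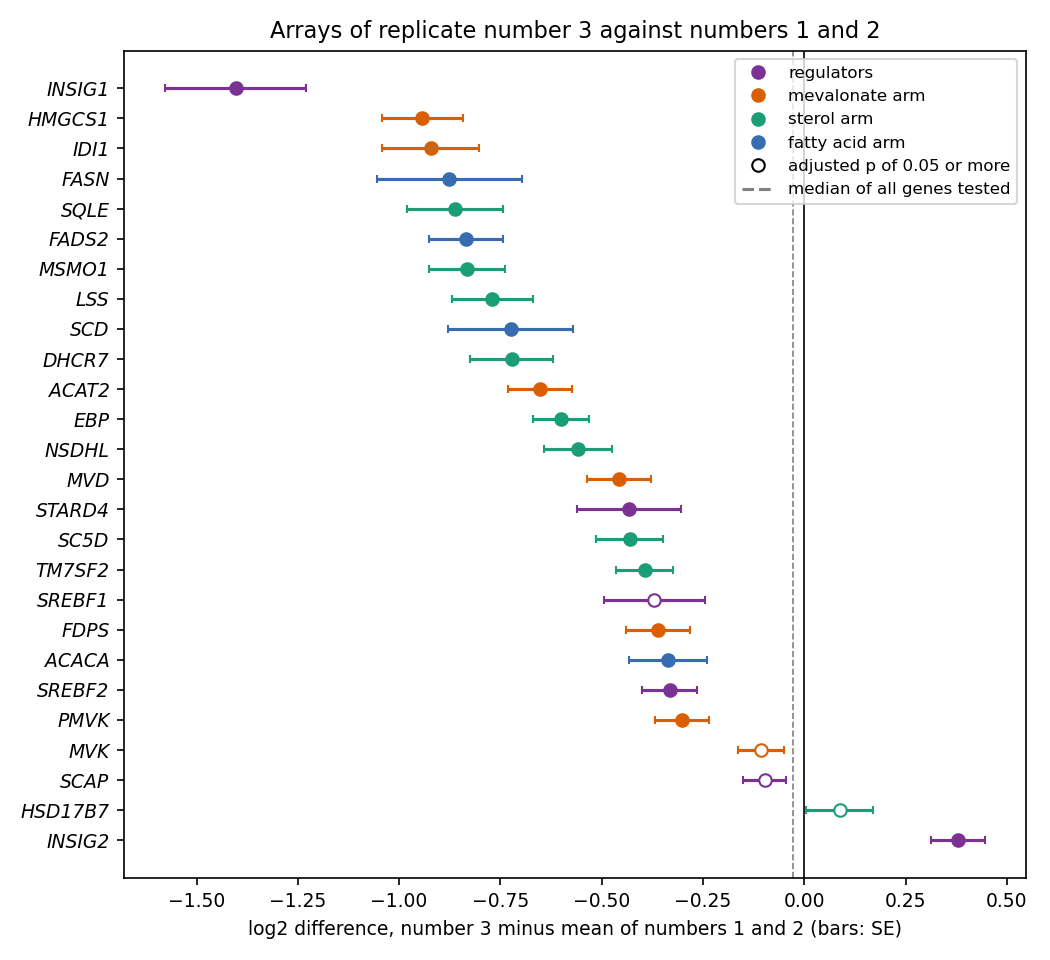
Log2 difference (x axis) between the arrays of replicate number 3 and the mean of numbers 1 and 2 for each of the 26 tested genes (y axis), coloured by role, with bars for the SE. Filled points passed the test, the dashed line is the median of all genes tested (-0.029), and INSIG1 lies furthest left at -1.40.

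Leaving out any 1 array or replicate number left between 17 and 23 of the 26 genes called in number 3, with a median between -0.59 and -0.46. Against number 2 alone, the calls of SREBF2, PMVK, MVD, FDPS, ACACA and FASN were lost, and against number 1 alone those of STARD4 and SC5D. STARD4 also lost its call when any of 8 single arrays was left out, and ACACA when any of 5 was. The same contrast for number 1 called 15 members higher and 2 lower, against 27.5% and 15.9% of all genes (43.4% in either direction). For number 2 it called 12 higher and 1 lower, against 6.7% and 12.2% (18.9%). These 3 contrasts use the same arrays, so they are not independent of each other. The 3′ minus 5′ difference of the GAPDH control probe sets, a measure of RNA integrity, lay between 0.17 and 0.25 in number 3 and between 0.15 and 0.32 over all arrays. That of ACTB lay between 0.46 and 0.57 in number 3 and between 0.34 and 0.70 over all. Of the 8 myeloid markers, 2 rose in number 3 (ITGB2 0.46, CD4 0.23) and 1 fell (LYZ, -0.52). Of the 13 tested markers of other cell types, 1 was called (ITGA2B, -0.28). Their part in the members' difference was not tested.

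The other genes of the pathway were followed in 3 lists outside the members. In the list of other sterol and isoprenoid genes, 17 of 20 were tested. For ATRA in EVI1 cells, 6 of the 17 passed (35.3%, against 15.1% of all genes): LBR, a sterol reductase of the nuclear membrane, rose by 0.70 ± 0.16 (adjusted p = 0.0125), NPC2, which carries cholesterol out of lysosomes, rose by 0.70 ± 0.14 (adjusted p = 0.00840), and 4 fell. Those were TMEM97, a sterol-responsive membrane protein, by 0.91 ± 0.22 (adjusted p = 0.0176), SCARB1, the high-density lipoprotein receptor, by 0.64 ± 0.20 (adjusted p = 0.0473), PDSS1 by 0.63 ± 0.18 (adjusted p = 0.0398) and ERLIN1 by 0.56 ± 0.11 (adjusted p = 0.00630).

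In vector cells, NPC2 was the one gene of this list to pass for ATRA, at 0.73 ± 0.14 (adjusted p = 0.0210). Under ATRA, NPC1, the partner of NPC2, was higher in EVI1 than in vector cells by 0.75 ± 0.15 (adjusted p = 0.0173), and TMEM97 was lower by 0.87 ± 0.22 (adjusted p = 0.0407). NPC1 read 9.74, 9.63 and 9.55 in vector ATRA cells and 10.09, 10.57 and 10.51 in EVI1 ATRA cells, which do not overlap. Under DMSO it read 9.88, 9.91 and 9.87 in vector cells and 10.41, 10.77 and 10.21 in EVI1 cells, which do not overlap either, and the difference was 0.58 ± 0.15 (adjusted p = 0.115, and 0.0282 with the block). With the block, 5 genes of this list rose and 3 fell for ATRA in vector cells, 4 and 5 in EVI1 cells, 2 and 0 for EVI1 under DMSO, and 2 and 5 for EVI1 under ATRA. These are 47.1%, 52.9%, 11.8% and 41.2% of the 17, against 20%, 35.7%, 7.19% and 25.3% of all genes.

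Of 22 other fatty acid genes, 19 were tested. MLXIPL, a carbohydrate-responsive factor, rose with ATRA in EVI1 cells by 0.99 ± 0.22 (adjusted p = 0.0123), and ACSL1, a long-chain acyl-CoA synthetase, was higher in EVI1 than in vector cells under ATRA by 0.75 ± 0.16 (adjusted p = 0.0212). No other gene of this list passed without the block. With it, 3 rose and 3 fell for ATRA in vector cells, 5 and 3 in EVI1 cells, 3 and 0 for EVI1 under DMSO, and 4 and 1 for EVI1 under ATRA. These are 31.6%, 42.1%, 15.8% and 26.3% of the 19, against 20%, 35.7%, 7.19% and 25.3% of all genes, so the last share was near that of all genes.

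The liver X receptors sense oxysterols and are known to induce SREBF1. NR1H3, which encodes one of them, read 6.36, 6.36 and 6.44 in vector DMSO cells, 6.91, 7.30 and 7.11 in vector ATRA cells, 6.14, 6.69 and 6.89 in EVI1 DMSO cells and 7.49, 8.66 and 8.55 in EVI1 ATRA cells. Each ATRA group lay above its DMSO group. NR1H3 rose with ATRA in EVI1 cells by 1.66 ± 0.27 (3.16-fold, adjusted p = 0.00310) and was higher in EVI1 than in vector cells under ATRA by 1.13 ± 0.27 (adjusted p = 0.0346). In vector cells its ATRA difference was 0.72 ± 0.27 (adjusted p = 0.187, and 0.0230 with the block). The interaction was 0.94 ± 0.39 (adjusted p = 0.998, and 0.346 with the block), so a larger response in EVI1 cells was not shown. NR1H3 was the only one of the 4 tested genes of its list to pass without the block. With the block, 1 of the 4 rose and 1 fell for ATRA in vector cells, and 2 and 1 in EVI1 cells. For EVI1 these counts were 1 and 0 under DMSO and 2 and 1 under ATRA. The shares called were 50%, 75%, 25% and 75%, against 20%, 35.7%, 7.19% and 25.3% of all genes. RXRA, of the same list, had lower means with ATRA: 8.19 against 8.56 in vector cells and 8.63 against 8.95 in EVI1 cells.

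In number 3, 5 of the 17 other sterol genes fell and 3 rose, and 8 of the 19 other fatty acid genes fell and 3 rose. The shares that fell and rose were 29.4% and 17.6% in the first list and 42.1% and 15.8% in the second, against 12.5% and 10.9% of all genes. The genes that fell included ACLY, which makes cytosolic acetyl-CoA (-0.37 ± 0.049, adjusted p = 0.00185), SLC25A1, the citrate carrier (-0.40 ± 0.068, adjusted p = 0.00413), and TMEM97 (-0.42 ± 0.090, adjusted p = 0.00994). The 2 proteases that cleave the precursors of both factors went opposite ways: MBTPS2 rose by 0.39 ± 0.083 (adjusted p = 0.0101) and MBTPS1 fell by 0.19 ± 0.057 (adjusted p = 0.0369). Among the fatty acid genes that rose were ACACB, the second acetyl-CoA carboxylase (0.40 ± 0.091, adjusted p = 0.0124), and SCD5, a second stearoyl-CoA desaturase (0.28 ± 0.053, adjusted p = 0.00690). The medians of the other sterol and other fatty acid lists in number 3 were -0.089 and -0.023, against -0.51 for the members. In the liver X receptor list, 2 of 4 genes fell in number 3 and 0 rose (50% and 0%, against 12.5% and 10.9% of all genes). Those were RXRA (-0.40 ± 0.064, adjusted p = 0.00342) and ABCG1 (-0.32 ± 0.081, adjusted p = 0.0203).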

How the data were processed

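Expression was measured on Affymetrix 3′ arrays in 12 samples. The authors' deposited values are log2 levels per probe set, made with RMA (Expression Console 1.3), per the submitters' processing notes, and were used without further scaling. RMA ties the arrays to 1 distribution, so a shift shared by all genes cannot be seen. Of 54675 probe sets, 42898 were named in the array annotation, and 41097 with exactly 1 symbol were used.

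The main limma fit (version 3.58.1, R 4.3.3) took the means of the 4 groups from all arrays at once, without a block, leaving 8 residual degrees of freedom. The titles number the replicates. Same-numbered samples deviated together in 18 of 18 pairs of arrays from different groups (r 0.408 to 0.704, median 0.575), and differently numbered ones had r from -0.560 to 0.164, so the numbers pair the samples. The fit with the replicate number as a block is given where it changes a call. Scripts were tested on simulated data. Comparisons of replicate numbers were added after values were seen. The replicates are called biological, but what separates them is not given in the sources used here, so p-values measure only the spread between these samples, which may be technical.

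Members described in full passed a test with or without the block, or differed by at least 0.8, or are named regulators. SCAP was included by the first of these. Array values were also given, outside that rule, for HMGCS1, MSMO1, SCD and FASN. The members and all lists were chosen with earlier results of these data known. In number 3, MBTPS1, MBTPS2, ACACB, SCD5, ACLY, SLC25A1, TMEM97, RXRA and ABCG1 were named after their values were seen. The same holds for RXRA in the ATRA comparisons.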

Additional observations from a re-analysis of the deposited data

How the results depend on the processing

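With replicate block, 3, 4, 1 and 7 genes of 26 were called for ATRA in vector cells, ATRA in EVI1 cells, EVI1 under DMSO and EVI1 under ATRA, against 0 without it, and the replicate block moved the counts over all genes from 496, 2127, 171 and 790 to 2818, 5023, 1013 and 3559. It changed no other call of a member between groups. The fit on the groups compared alone called 1 member for ATRA in vector cells, and gave 735, 92 and 269 genes in all in the other 3 comparisons. For ATRA in EVI1 cells, 1 member was called with the mean of all probe sets, 1 with an intensity trend and robust variance, and 2 with array weights. For EVI1 under ATRA, 3 were called with array weights, and the members' median turned from -0.17 to 0.098. The interaction median turned from -0.10 to 0.19 with array weights, and that of EVI1 under DMSO was -0.05 with the mean of all probe sets. Array weights gave 1387, 3888, 382 and 2761 genes in all, and 1 for the interaction. The cause was not tested.

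For the group comparisons, 1 array or replicate number was left out in the fit without the block. This gave medians of -0.051 to 0.26 for ATRA in vector cells, -0.18 to 0.18 for ATRA in EVI1 cells, -0.21 to 0.053 for EVI1 under DMSO, -0.37 to 0.053 for EVI1 under ATRA and -0.33 to 0.13 for the interaction. The members called ranged from 0 to 1, 0 to 1, 0 to 0, 0 to 2 and 0 to 0. The median of EVI1 under ATRA was 0.053 and the interaction median 0.13 without EVI1 ATRA replicate 3, and that of EVI1 under DMSO was 0.053 without EVI1 DMSO replicate 3. Each of these took an array of number 3, low for most members, from only 1 group. Counts over all genes ranged from 0 to 632, 5 to 3224, 12 to 190, 15 to 1962 and 0 to 1. For number 3, the members called ranged from 17 to 23, the median from -0.59 to -0.46 and all genes from 1161 to 4115. For number 1 they were 10 to 21, 0.011 to 0.54 and 4115 to 6077. For number 2 they were 7 to 17, -0.011 to 0.57 and 1067 to 5035. In number 3, 13 of the 21 members that fell, and INSIG2, passed in all 20 alternatives, while ACACA passed in 14 and STARD4 in 11. With 3 arrays a group, the number of arrays limits the precision.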

Other observations

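Beside the synthesis genes, other transcripts differed between replicate number 3 and the other numbers, and those named here were chosen after their values were seen, without keeping to the order of size. The falls included GSG1 (-1.17 ± 0.18), MS4A3, a haematopoietic membrane protein (-1.06 ± 0.20), FUT7, a fucosyltransferase (-0.97 ± 0.15), SLC7A5, an amino acid transporter (-0.94 ± 0.11), and PSAT1, an enzyme of serine synthesis (-0.77 ± 0.13). The largest rise exceeded the largest fall, that of INSIG1, in size: CD52 rose by 2.75 ± 0.34, GDF15, a stress-responsive secreted factor, by 2.52 ± 0.38, and NAPSB by 2.10 ± 0.29. The retinoid-responsive genes DHRS3 (1.81 ± 0.57, adjusted p = 0.0434) and TGM2 (1.54 ± 0.30, adjusted p = 0.00725) and the ectoenzyme gene CD38 (1.31 ± 0.41, adjusted p = 0.0425) also rose in number 3. All these are limma differences over the 4 groups, and their relation to the synthesis genes was not tested.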
